A study of Mus musculus with 10 samples.

Results

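The unfolded protein response is the programme by which a cell adjusts when misfolded proteins build up in the endoplasmic reticulum (ER). Its sensors sit in the ER membrane. IRE1, encoded by Ern1 and its paralogue Ern2, splices the mRNA of the transcription factor Xbp1, PERK (Eif2ak3) slows translation and favours that of Atf4, and ATF6 is cut in the Golgi to free a transcription factor. Their targets include the ER chaperone Hspa5 (BiP), the folding enzyme Pdia4, the co-chaperone Dnajb9, Herpud1, which acts in ER-associated degradation, and Ddit3 (CHOP). In the gut, Ern2 is known for its expression in mucus-secreting epithelium, where goblet cells fold large amounts of mucin.

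These 10 genes, Hspa5, Xbp1, Ern1, Ern2, Ddit3, Atf4, Atf6, Pdia4, Dnajb9 and Herpud1, were described in intestinal epithelial cells (IECs) of the colon by RNA sequencing. The groups were 5 wild-type (WT) C57BL/6J mice and 5 mice of the same strain labelled RhoB-/-, a whole-body knockout of the small GTPase RhoB, with 1 library per mouse. The mice were otherwise untreated. The RhoB-/- mice were made by one supplier and the WT mice were bought from another, so that genotype and source of the animals cannot be told apart. The cells were released with EDTA and DTT, which also frees lymphocytes that lie within the epithelium. The members were the rows that carry one of the 10 gene names, 11 of 55487 rows, because 2 rows are named Ddit3. Values are TPM, the share of transcripts scaled to a fixed total, a level per transcript length which keeps no sequencing depth, so the counting error is unknown. Tests covered the 12870 genes whose TPM averaged 1 or more over all libraries, and all 11 rows were among them.

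The library labels were checked first. The TPM of Rhob was 171 to 389 in the WT libraries and 0.09, 0.10, 0.35 and 0.57 in RhoB-/- replicates 1 to 4, but 110.9 in the library labelled RhoB-/- replicate 5, which stood apart and was kept under its label. The summed TPM of 10 colon epithelium markers was 20520 to 26628 in WT and 21994 to 38929 in RhoB-/- libraries, whereas that of 5 B cell markers stayed between 0.08 and 12.2 over all libraries. Among all tested genes, limma (Benjamini-Hochberg adjusted p below 0.05, a threshold called "passed" throughout) gave 21.2% in either direction, 7.73% higher and 13.5% lower in RhoB-/- mice. These are 995 higher and 1734 lower genes. The split turned to 2004 higher and 1608 lower with libraries centred on their medians, and was 1587 and 1975 with quantile normalization and 1101 and 3729 without mitochondrial genes. Mitochondrial genes took up 17.5% to 26.5% of all TPM in WT and 10.3% to 22.4% in RhoB-/- libraries. The median log2 fold change of all tested genes was -0.13 on the log2(TPM + 1) scale, and -0.012 after centring.

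Of the 10 genes, 1 was lower in RhoB-/- mice, Ern2, and none was higher (limma). The background shares were 13.5% and 7.73%. No other member had an unadjusted p below 0.05. The median log2 fold change of the 10 members was -0.18, beside -0.13 for all tested genes. On the TPM scale the WT levels ran from Hspa5 (448.6 ± 38.9, SD, n = 5, as for all means given here) through Atf4 (181.1 ± 48.0), Xbp1 (128.0 ± 12.1), Herpud1 (91.3 ± 30.1), Pdia4 (69.9 ± 7.73), Ddit3 (51.5 ± 25.8), Ern2 (38.9 ± 8.92), Dnajb9 (31.8 ± 11.2) and Ern1 (12.5 ± 1.85) to Atf6 (9.81 ± 1.34). In this order the libraries of Hspa5 lay apart from those of Atf4 and those of Dnajb9 apart from those of Ern1, whereas every other pair of neighbours overlapped. The order in RhoB-/- mice was the same but for Ern2 and Dnajb9, which changed places. There the highest Ern2 value, 23.4 TPM, was below the lowest Dnajb9 value, 28.1 TPM.

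**Figure D1:**
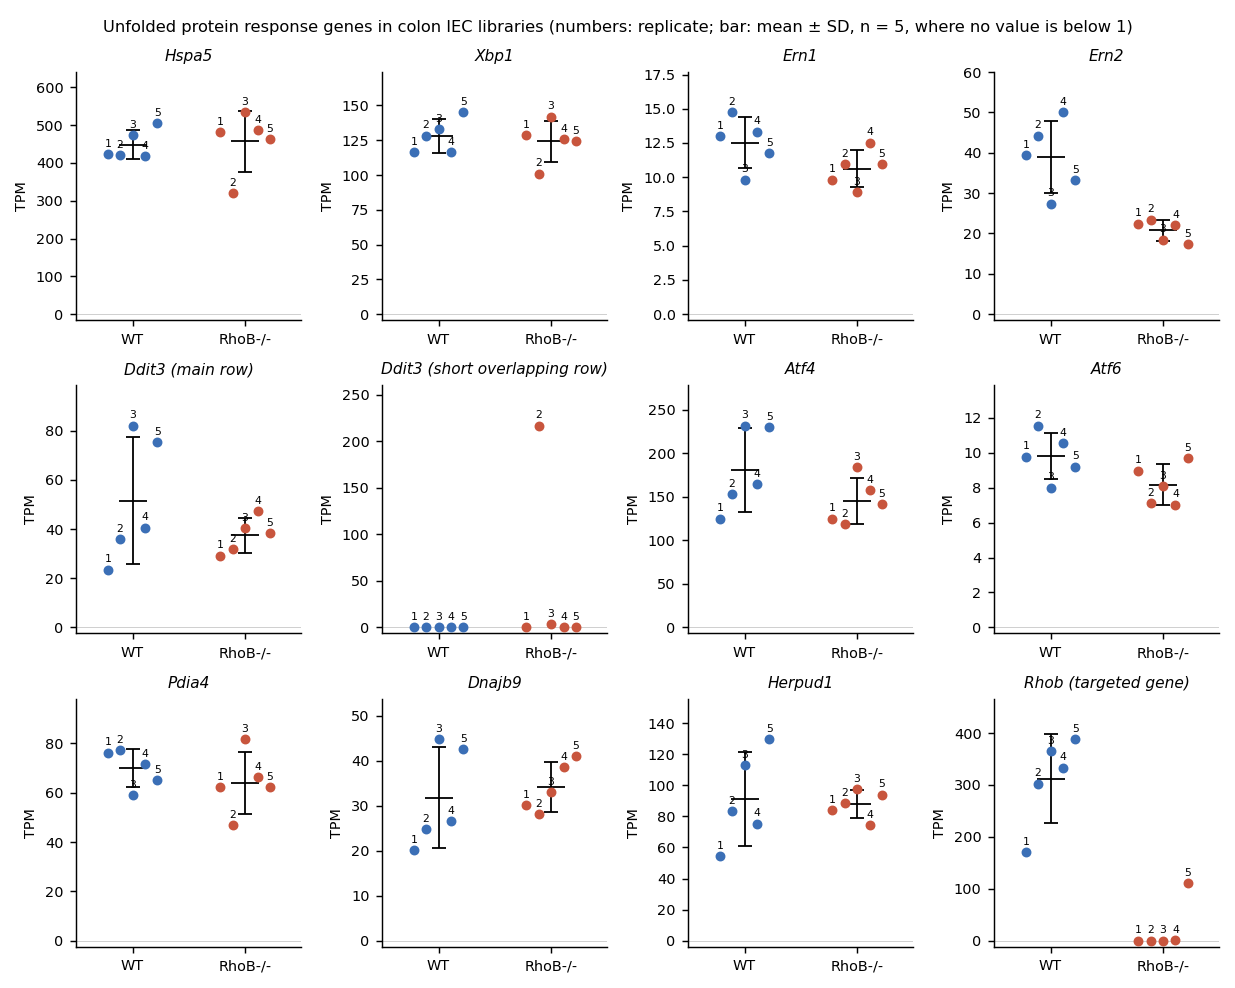
TPM (y axis, linear) of each member and of Rhob in the 5 WT (blue) and 5 RhoB-/- (red) libraries, with the replicate number above each point and the mean ± SD where no library is below 1 TPM. Ern2 is the member whose genotypes do not overlap, with 27.4 TPM in the lowest WT and 23.4 TPM in the highest RhoB-/- library.

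Ern2 (ENSMUSG00000030866, chr7:122169893-122186207, minus strand, GRCm38) encodes the IRE1 paralogue of mucosal epithelium. Its level in WT replicates 1 to 5 was 39.5, 44.3, 27.4, 50.04 and 33.2 TPM. In RhoB-/- replicates 1 to 5 it was 22.5, 23.4, 18.5, 22.1 and 17.5 TPM. All 5 RhoB-/- libraries lay below all WT libraries, which held for 8.55% of the tested genes, and the highest value was that of WT replicate 4. The WT mean of 38.9 ± 8.92 TPM compared with 20.8 ± 2.64 TPM in RhoB-/- mice, so that the mean fell by 46.6%. The log2 fold change was -0.85 (standard error 0.16, 95% interval -1.20 to -0.51, adjusted p = 0.00354, limma with Benjamini-Hochberg adjustment), a fold of 0.554 (0.437 to 0.703). It was -0.79 (adjusted p = 0.0113, limma) without the library labelled RhoB-/- replicate 5, -0.74 (adjusted p = 0.00729, limma) with libraries centred on their medians, and over all alternatives the adjusted p ranged from 0.00138 to 0.0125.

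Ern1 (ENSMUSG00000020715, chr11:106394650-106487852, minus strand) encodes the IRE1 form that is expressed in most tissues. It was listed at 13.0, 14.7, 9.82, 13.3 and 11.7 TPM in WT replicates 1 to 5 and at 9.82, 10.96, 8.93, 12.5 and 10.9 TPM in RhoB-/- replicates 1 to 5. The groups overlapped, and the log2 fold change was -0.21 (95% interval -0.48 to 0.05, adjusted p = 0.227, limma). To compare both paralogues directly, the ratio of Ern2 to Ern1 was formed within each library. It was 2.79 to 3.75 in WT (3.08 ± 0.39) and 1.60 to 2.29 in RhoB-/- libraries (1.97 ± 0.283), without overlap. On the log2(TPM + 1) scale the difference between the paralogues was 0.64 smaller in RhoB-/- mice (1.54 ± 0.17 against 0.90 ± 0.20, two-sided p = 0.00794 by exact permutation over the 252 ways to label the libraries, which allow no smaller p). Ern2 thus fell relative to Ern1 as well as in its own level. The ratio reuses the Ern2 values and is not separate evidence of their fall.

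In these bulk samples, fewer cells of a type and less RNA per cell cannot be told apart. Markers of other cells moved with the genotypes, and their part in the Ern2 result was not tested. The marker counts below stand beside 7.73% higher and 13.5% lower over all tested genes. Of 16 goblet cell markers, 5 were higher (Spink4, Fcgbp, Clca1, Retnlb and Ang4) and 1, Klk1, was lower in RhoB-/- mice, and their summed level was 15721 to 18112 TPM in WT and 20955 to 24689 TPM in RhoB-/- libraries. The sums without Ang4, Retnlb and Clca1, left out after their values were seen, overlapped, at 14649 to 17316 TPM in WT and 14716 to 18017 TPM in RhoB-/- libraries. The other 10 markers did not pass, among them the mucin Muc2 with a fold of 0.875 (adjusted p = 0.474, limma). Of 8 enteroendocrine markers 4 were lower and none was higher, with sums of 468.8 to 616.6 TPM in WT and 244.6 to 431.3 TPM in RhoB-/- libraries. Of 10 proliferation markers 3 were lower (312.5 to 425.7 against 164.9 to 427.8 TPM), and of 6 tested T cell markers 5 were higher (6.54 to 14.0 against 21.6 to 28.1 TPM, sums over 9 markers). Of 6 tuft cell markers 3 were tested and 2 were higher. Of 8 plasma cell markers 4 were tested and 2 were higher, with Tnfrsf17 at 0 in every library. Of 7 myeloid and 9 stromal markers 2 each were tested and 1 each was higher. The WT sums were 4.51 to 12.8 TPM for tuft cell, 1.77 to 3.18 TPM for myeloid and 4.23 to 5.35 TPM for stromal markers. The filter averages all 10 libraries. Markers near the floor in WT, T cell markers included, can thus reach it through the RhoB-/- group, which favours calls of higher. Of the 10 epithelium markers 3 were higher, and none of the B cell markers reached the filter.

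Atf6 (ENSMUSG00000026663, chr1:170704674-170867771, minus strand) encodes the sensor that is itself a transcription factor precursor. It had the lowest level of the members, with 9.78, 11.6, 8.0, 10.5 and 9.20 TPM in WT and 8.98, 7.11, 8.09, 7.03 and 9.68 TPM in RhoB-/- replicates 1 to 5. The groups overlapped (log2 fold change -0.24, 95% interval -0.50 to 0.03, adjusted p = 0.178, limma). For its paralogue Atf6b the log2 fold change was -0.18 (adjusted p = 0.294, limma). Eif2ak3, the PERK sensor, spanned 12.8 to 15.1 TPM in the WT libraries and 7.70 to 12.7 TPM in the RhoB-/- libraries. All its RhoB-/- values lay below its WT values, but its log2 fold change of -0.34 (adjusted p = 0.0754, limma) did not pass, and did pass without mitochondrial genes (-0.42, adjusted p = 0.0165, over the alternatives tried up to 0.144). Eif2ak2, a kinase of the same translation factor as PERK that answers to double-stranded RNA and is named here after its values were seen, rose by 1.09 on the log2 scale, as 1 of 12 genes of an interferon list that all passed, with sums of 120.0 to 189.4 TPM in WT and 1258 to 2419 TPM in RhoB-/- libraries. Of all tested genes, 7.73% were higher.

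**Figure D2:**
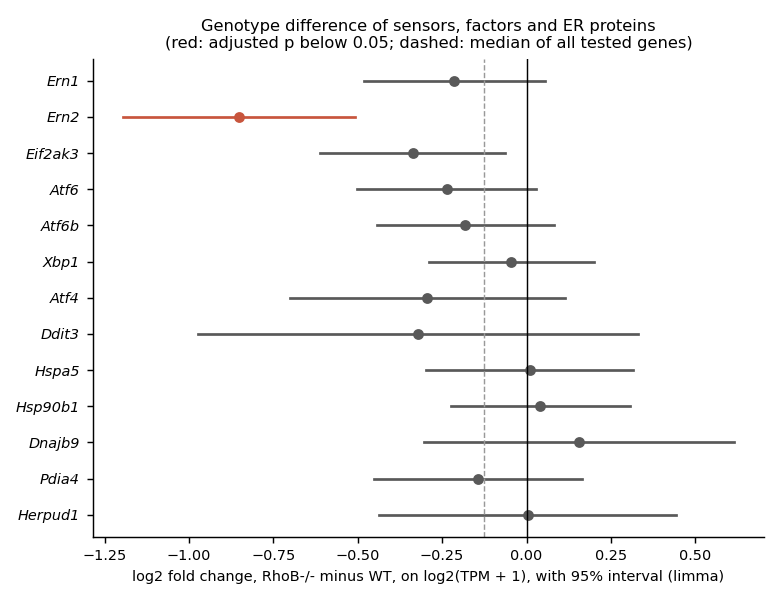
Log2 fold change (RhoB-/- minus WT, x axis, on log2(TPM + 1)) of 13 sensors, transcription factors and ER proteins with 95% intervals from limma, n = 5 libraries per genotype. The interval of Ern2, in red, ends at -0.51, and those of the other members include 0. That of Eif2ak3, not a member, runs from -0.61 to -0.06 (adjusted p = 0.0754, limma).

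Xbp1 (ENSMUSG00000020484, chr11:5520659-5525893, plus strand) encodes the transcription factor made from the mRNA that IRE1 splices. Gene-level TPM counts both splice forms together, so that splicing was not measured here. Xbp1 was at 116.6, 128.4, 133.2, 116.5 and 145.1 TPM in WT and at 128.4, 101.0, 141.9, 125.9 and 124.2 TPM in RhoB-/- replicates 1 to 5. The groups lay over each other, with a fold of 0.969 (95% interval 0.818 to 1.15, adjusted p = 0.798, limma). The interval leaves out changes in Xbp1 mRNA larger than these bounds.

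Atf4 (ENSMUSG00000042406, chr15:80255184-80257541, plus strand) encodes the factor translated when PERK or a related kinase is active, so that its mRNA level is only part of its control. Its TPM was 125.1, 153.0, 231.9, 164.6 and 230.6 in WT and 124.9, 118.3, 183.8, 157.5 and 141.4 in RhoB-/- replicates 1 to 5. WT replicates 3 and 5 stood above all other libraries and the groups otherwise overlapped (log2 fold change -0.29, 95% interval -0.70 to 0.11, adjusted p = 0.274, limma).

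Ddit3 encodes CHOP, a factor linked to cell death under lasting ER stress. The main row (ENSMUSG00000025408, chr10:127290774-127296288, plus strand) was at 23.6, 36.0, 82.1, 40.6 and 75.6 TPM in WT and at 29.2, 31.9, 40.5, 47.4 and 38.4 TPM in RhoB-/- replicates 1 to 5. All RhoB-/- values lay within the WT range, whose coefficient of variation was 50% against 19.2% in RhoB-/- mice. The log2 fold change was -0.32 with a wide interval of -0.97 to 0.33 (adjusted p = 0.457, limma). The second row of this name (ENSMUSG00000116429, chr10:127290829-127293753) is an annotated transcript of 105 bases, all of them inside exons of the main gene, so that reads of the main gene may be assigned to it. It was listed at 0 in all WT libraries and in RhoB-/- replicates 1, 4 and 5, at 3.54 TPM in replicate 3 and at 216.9 TPM in replicate 2. In TPM a read weighs more on a shorter transcript, and this row did not pass (adjusted p = 0.265, limma). The row reached the filter through RhoB-/- replicate 2 and was not tested without that library, so this p rests on 1 library. With both rows summed, a choice made after seeing the data, the log2 fold change of Ddit3 was 0.29 (adjusted p = 0.721, limma, against 0.134 to 0.779 over the other alternatives).

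Among the ER proteins of the member list, Hspa5 (ENSMUSG00000026864, chr2:34771970-34777547, plus strand), the chaperone that also holds the sensors inactive, had the highest level. It was at 424.0, 420.9, 474.5, 419.2 and 504.8 TPM in WT and at 481.0, 320.2, 534.2, 486.8 and 462.7 TPM in RhoB-/- replicates 1 to 5. RhoB-/- replicates 2 and 3 were the lowest and the highest of all libraries, and the fold was 1.01 (95% interval 0.814 to 1.25, adjusted p = 0.968, limma). Hsp90b1, another ER chaperone, had a fold of 1.03 (0.856 to 1.24, adjusted p = 0.835, limma).

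Pdia4 (ENSMUSG00000025823, chr6:47796141-47813430, minus strand), a disulfide isomerase, was at 76.2, 77.4, 59.0, 71.7 and 65.2 TPM in WT and at 62.2, 46.7, 81.8, 66.2 and 62.4 TPM in RhoB-/- replicates 1 to 5. The groups overlapped, and RhoB-/- replicates 2 and 3 were again the lowest and the highest of all libraries (log2 fold change -0.14, 95% interval -0.45 to 0.17, adjusted p = 0.486, limma).

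Dnajb9 (ENSMUSG00000014905, chr12:44205559-44210326, minus strand), a co-chaperone of BiP, was at 20.2, 24.9, 44.9, 26.6 and 42.6 TPM in WT and at 30.2, 28.1, 33.0, 38.6 and 41.0 TPM in RhoB-/- replicates 1 to 5. All RhoB-/- libraries lay between the lower 3 and the upper 2 WT libraries (log2 fold change 0.16, 95% interval -0.31 to 0.61, adjusted p = 0.622, limma). Herpud1 (ENSMUSG00000031770, chr8:94386438-94395377, plus strand) was at 54.5, 83.7, 113.0, 75.4 and 129.9 TPM in WT and at 84.1, 88.8, 97.7, 74.6 and 94.0 TPM in RhoB-/- replicates 1 to 5. Its RhoB-/- libraries lay within the WT range (log2 fold change 0.003, 95% interval -0.44 to 0.44, adjusted p = 0.993, limma). Over the 9 members other than Ern2, with Ddit3 by its main row alone, the intervals of the log2 fold change extended at most from -0.97 to 0.61. The interval of the second Ddit3 row was -0.71 to 4.69. With both Ddit3 rows summed the standard error was 0.524, beside 0.298 for the main row.

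The WT mice varied among themselves in a shared way, which was noticed after the values were seen. WT replicates 3 and 5 were the upper 2 WT libraries for 6 members, the transcription factors Ddit3, Atf4 and Xbp1 and the ER proteins Hspa5, Dnajb9 and Herpud1. They were the lower 2 for the other 4, the sensors Ern1, Ern2 and Atf6 and the isomerase Pdia4. Among all tested genes the first order held for 8.24% and the second for 21.2%. Deviations from the WT mean were widest for Ddit3, from -0.95 in replicate 1 to 0.81 in replicate 3 on the log2 scale, and narrowest for Hspa5, from -0.09 to 0.17. The summed TPM of 10 immediate early genes, which dissection and cell isolation can induce, was 1600, 2790, 5102, 3184 and 5182 in WT replicates 1 to 5, with replicates 3 and 5 highest. In RhoB-/- replicates it was 2571 to 3873, and none of the 10 genes passed (median log2 fold change -0.06). Of 9 heat shock genes 8 were lower in RhoB-/- mice, beside 13.5% of all tested genes (sums of 3858 to 5055 TPM in WT and 1119 to 1961 TPM in RhoB-/- libraries). The part of either list in the members' values was not tested. Within the RhoB-/- group, replicate 2 was the lowest library for 5 members, Hspa5, Xbp1, Atf4, Pdia4 and Dnajb9. The share of all tested genes with this order was not computed, so the count cannot be read as a trait of the members.

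**Figure D3:**
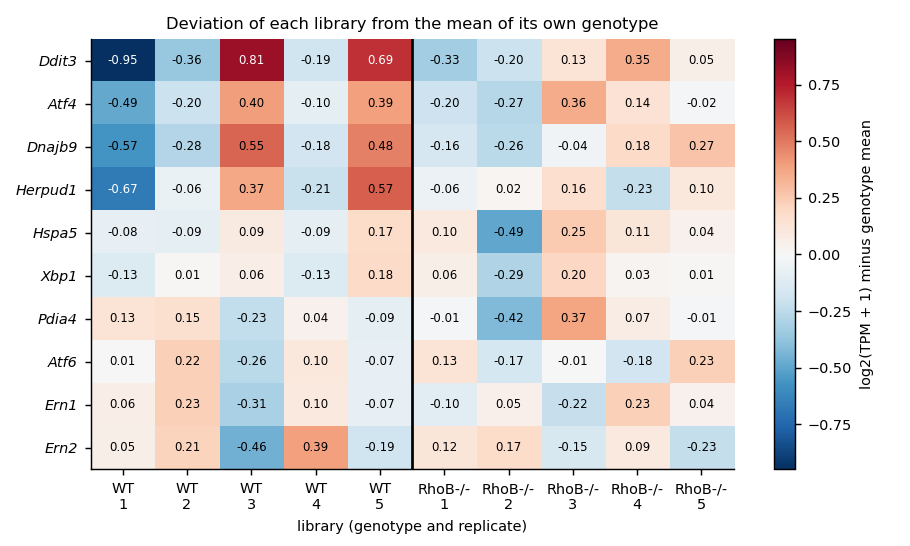
Deviation of each library (x axis) from the mean of its own genotype on the log2(TPM + 1) scale for the 10 members (y axis), with red above and blue below the mean. Ddit3 ranges from -0.95 in WT replicate 1 to 0.81 in WT replicate 3, and the RhoB-/- libraries spread less for this gene.

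To describe which genes varied most like each member, Pearson's r of these deviations was ranked over all tested genes. The highest r among 12870 genes over only 10 libraries can be large without any link, and the values describe these libraries alone. Ddit3 was most like Nfil3 (r = 0.971), with the stress factor Atf3 among its first 5 (r = 0.964). Dnajb9 was most like Tuft1 (r = 0.998), Herpud1 most like Spry2 (r = 0.953) followed by the immediate early gene Junb (r = 0.931), and Atf4 most like Gm8989 (r = 0.983). Pdia4 was most like Tars (r = 0.987), and its first 5 also held the ER proteins Rpn2 (r = 0.981) and Pdia3 (r = 0.972). Hspa5 was most like Gtpbp4 (r = 0.951) with the cochaperone Dnaja1 in its first 5 (r = 0.945), and Xbp1 was most like Cmtr2 (r = 0.963) with Hspa5 in its first 5 (r = 0.934). Ern2 was most like Pm20d2 (r = 0.952), Ern1 most like Cgnl1 (r = 0.956) and Atf6 most like Adam10 (r = 0.974). Apart from Hspa5 for Xbp1, no member stood among the first 5 genes of another member.

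Promoters were read for the sequence elements through which ATF6, XBP1 and ATF4 are known to act. RefSeq windows (GRCm38.p6) of 250 bases before to 50 after the start were found for 8 of the 10 members, all but Ern2 and Atf6. Searched on both strands were the ER stress element (CCAAT, any 9 bases, CCACG), the related ERSE-II (ATTGG, any base, CCACG), the core TGACGTG of the unfolded protein response element and the core TGATGNAA of the ATF4 site, where N is any base. They were found in 0.119%, 0.0365%, 2.01% and 3.97% of all 32851 windows. Each was found in 1 of the 8 members, in Hspa5 or Herpud1, whose matches are shown in capitals, 5′ to 3′ on the plus strand, because they are the members that hold any of these letters.
Hspa5 unfolded protein response element, chr2:34771922-34771950: gggcgtagcaaTGACGTGagttgcggagg
Hspa5 ER stress element, chr2:34772020-34772048: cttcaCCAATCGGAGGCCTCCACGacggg
Herpud1 ATF4 site (read on the minus strand), chr8:94386306-94386335: accacggcgggTTGCATCAgcccgcacccc
Herpud1 ERSE-II, chr8:94386368-94386396: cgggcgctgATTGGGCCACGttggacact
Over the 95 pathway genes with a window, members included, the ER stress element was found in 9, ERSE-II in 2, the core TGACGTG in 8 and the ATF4 core in 15. A match is a description of letters, not a binding site. Neither Hspa5 nor Herpud1, which carry these matches, passed the test between genotypes.

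The wider pathway was followed in 5 lists of 110 genes, of which 105 were tested. Of these, 3 were higher and 8 were lower in RhoB-/- mice, 11 in all or 10.5%, beside 21.2% of all tested genes, and the median log2 fold change was -0.045. The RhoB-/- libraries all lay below the WT libraries for 7 of the 105 (6.67%, beside 8.55% of all tested genes) and all above them for 3 (2.86%, beside 5.97%). The count depended on the scaling, with 15 higher and 7 lower after centring on the medians, 9 and 15 with quantile normalization and 4 and 19 without mitochondrial genes. The shares were 21.0%, 22.9% and 21.9%, beside 28.1%, 27.7% and 36.4% of all tested genes in those fits. It was 7 without WT replicate 4 (6.67%, beside 12.4% of all tested genes in that fit), 7 without the library labelled RhoB-/- replicate 5 (6.67%, beside 14.3%) and 22 without RhoB-/- replicate 3 (21.0%, beside 30.3%).

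**Figure D4:**
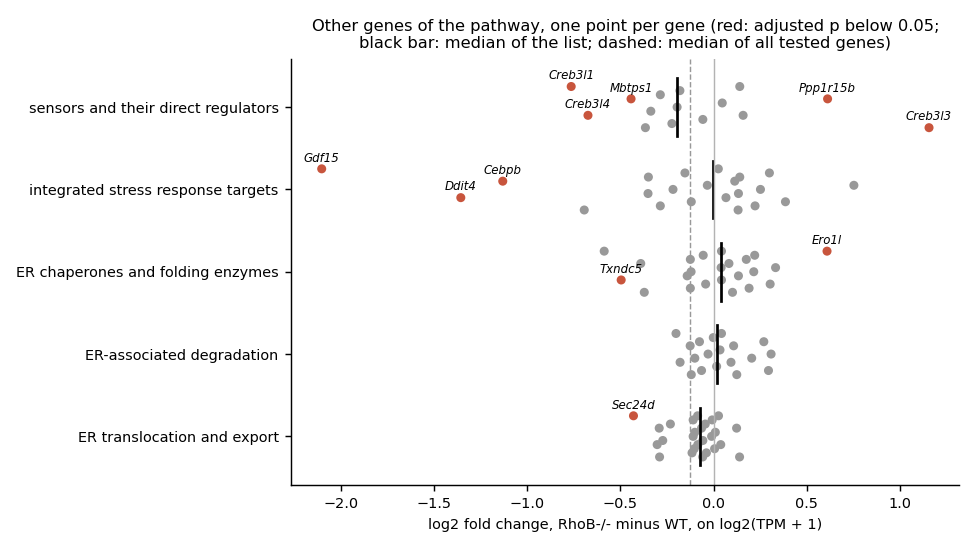
Log2 fold change (RhoB-/- minus WT, x axis) of each tested gene in the 5 pathway lists (y axis), with genes at an adjusted p below 0.05 in red and named, the list median as a black bar and the median of all tested genes (-0.13) dashed. Genes of ER-associated degradation lie between -0.20 and 0.31, and none of them passed in the main fit.

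Of the 15 sensors and direct regulators, 3 were lower and 2 were higher (median log2 fold change -0.20), beside 13.5% and 7.73% of all tested genes. Creb3l1 and Creb3l4, relatives of Atf6 that are cut in the Golgi in the same manner and are found in secretory cells, both fell. Creb3l1 was at 92.5, 120.3, 84.2, 101.0 and 93.2 TPM in WT and at 48.4, 59.7, 62.6, 69.7 and 47.8 TPM in RhoB-/- replicates 1 to 5 (log2 fold change -0.76, standard error 0.13, adjusted p = 0.00265, limma). Creb3l4 was at 22.6 to 25.1 TPM in WT and at 11.2 to 20.01 TPM in RhoB-/- libraries (-0.67, standard error 0.15, adjusted p = 0.0086, limma). The groups were apart for both genes, and their values in the library labelled RhoB-/- replicate 5 were the lowest of their group.
Mbtps1, the Golgi protease that cuts ATF6 and these relatives, was lower as well (log2 fold change -0.44, adjusted p = 0.0347, limma), but did not pass in 7 of the 10 fits that left out a library (adjusted p up to 0.0913, limma), nor with a replicate block (0.0704) or without the TPM filter (0.065). It was also not called under the alternative rule of unadjusted p below 0.05 with a fold above 1.5. Creb3l3, a relative known from liver and gut lipid metabolism, rose from 4.88 ± 2.52 to 11.7 ± 4.55 TPM (log2 fold change 1.16, standard error 0.30, adjusted p = 0.0203, limma). It did not pass without WT replicate 4 (adjusted p = 0.0537, limma), without the library labelled RhoB-/- replicate 5 (0.0501), where its value was highest, or without the TPM filter (0.0618). Ppp1r15b, a subunit of the phosphatase that reverses the translation block of PERK, rose from 43.7 ± 5.97 to 67.4 ± 10.9 TPM (log2 fold change 0.61, standard error 0.13, adjusted p = 0.00835, limma).

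**Figure D5:**
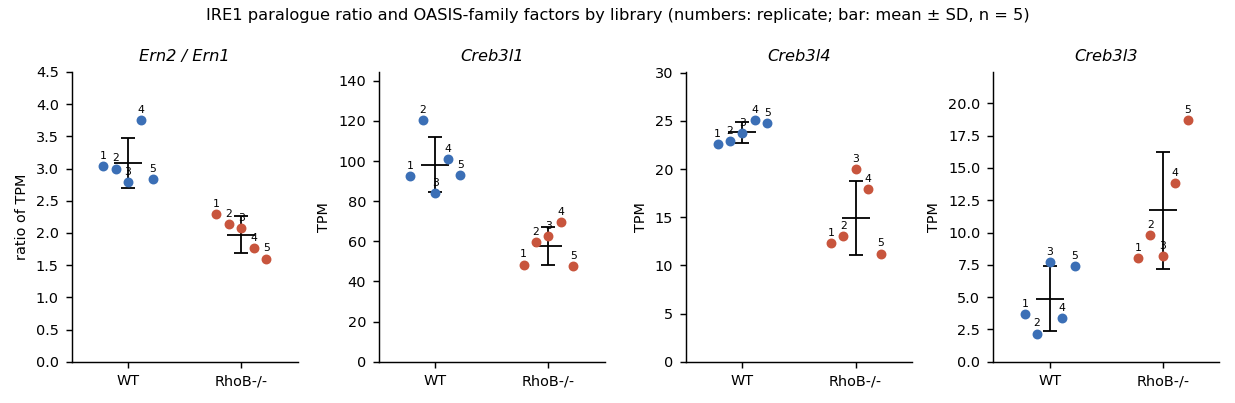
Ratio of the TPM of Ern2 to that of Ern1, and the TPM of Creb3l1, Creb3l4 and Creb3l3 (y axes, linear), in the 5 WT (blue) and 5 RhoB-/- (red) libraries with replicate numbers and mean ± SD. The ratio is at least 2.79 in WT and at most 2.29 in RhoB-/- libraries, and Creb3l1 and Creb3l4 are lower and Creb3l3 is higher in every RhoB-/- library.

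Of 22 tested targets of the integrated stress response, the branch that PERK and Atf4 share with other kinases, 3 were lower and none was higher (median log2 fold change -0.004). The shares over all tested genes were 13.5% lower and 7.73% higher. Gdf15, a secreted stress hormone, fell from 38.5 to 79.2 TPM in WT to 8.11 to 15.9 TPM in RhoB-/- libraries (log2 fold change -2.10, standard error 0.23, adjusted p = 8.91e-05, limma). Ddit4, an inhibitor of mTORC1 signalling, fell from 93.3 ± 13.2 to 35.9 ± 6.01 TPM (log2 fold change -1.36, standard error 0.13, adjusted p = 3.92e-05, limma), and its groups did not overlap. Cebpb, a bZIP factor that pairs with CHOP, fell from 17.7 ± 6.33 to 7.55 ± 3.04 TPM with overlapping groups (log2 fold change -1.13, adjusted p = 0.0148, limma). The other 19 did not pass in the main fit. Chac1 and Nupr1, named after their values were seen, had overlapping groups. Chac1 averaged 1.01 TPM in WT and 2.6 TPM in RhoB-/- libraries (limma, adjusted p = 0.0614). It passed as higher with a pseudocount of 0.1, after centring, with quantile normalization and without RhoB-/- replicate 1. Nupr1 averaged 279.6 and 165.7 TPM (0.0867). It passed as lower with quantile normalization, without mitochondrial genes, with a replicate block and without WT replicate 1.

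Of 23 tested ER chaperones and folding enzymes, 1 was higher and 1 was lower (median log2 fold change 0.042), beside 7.73% and 13.5% of all tested genes. Ero1l, the oxidase that recharges disulfide isomerases, rose from 17.3 ± 2.74 to 26.8 ± 3.73 TPM without overlap (log2 fold change 0.61, adjusted p = 0.00678, limma). Txndc5, a thioredoxin-like isomerase, was lower (log2 fold change -0.50, adjusted p = 0.0325, limma), with overlapping groups, and did not pass in 7 of the 10 fits that left out a library (adjusted p up to 0.077, limma), with a replicate block (0.0715) or without the TPM filter (0.0649). Agr2, the isomerase needed for mucin folding, named after its values were seen, averaged 2231 ± 225.1 TPM in WT and 1539 ± 489.4 TPM in RhoB-/- libraries (log2 fold change -0.59, adjusted p = 0.0523, limma). Agr2 did pass with a pseudocount of 0.1, with a mean TPM of at least 5, with quantile normalization, without mitochondrial genes and without RhoB-/- replicate 3 or 4. None of 19 genes of ER-associated degradation passed in the main fit, and their log2 fold changes ran from -0.20 to 0.31 (limma). With libraries centred on their medians, Ube2g2, Derl2, Syvn1, Edem1 and Os9 of this list passed as higher, beside 28.1% of all tested genes in either direction. Of the folding genes, Calr, Dnajb11, Sdf2l1, Creld2 and Erp44 did so too, while Txndc5 stayed lower. Without RhoB-/- replicate 2, Ube2g2, Derl2 and Syvn1 passed, beside 18.1%. These genes were named after their values were seen. Of 26 genes of ER translocation and export, Sec24d, a cargo subunit of the COPII coat, was lower (log2 fold change -0.43, adjusted p = 0.0355, limma) and did not pass in 7 of the 10 fits that left out a library (adjusted p up to 0.0865, limma), with libraries centred on their medians (0.07), with a replicate block (0.0951) or without the TPM filter (0.0669). Under the alternative rule of unadjusted p below 0.05 with a fold above 1.5, Agr2, Chac1 and Nupr1 were called. Txndc5 and Sec24d were not.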

How the data were processed

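RNA from colon IECs of 5 WT and 5 RhoB-/- mice was analysed, with 1 library for each mouse. Genotypes and replicate numbers are those of the sample labels. The authors trimmed paired-end reads, and HISAT2, StringTie, RSEM, edgeR (versions not given in the sources used here) and GRCm38.p6 are named in the submitters' processing notes. The deposited values are TPM per gene, so that neither depth nor a counting error can be stated. Genes averaging 1 TPM or more were tested on log2(TPM + 1) with limma 3.58.1 (trend, R 4.3.3) and Benjamini-Hochberg adjustment over all tested genes, a fit that understates changes of genes with low TPM. It was tested on simulated data. The ratio of Ern2 to Ern1 was compared by an exact permutation test over all labellings of the libraries (Python 3.11.15). Positions are from GENCODE M21 (GRCm38) and promoter windows from RefSeq.

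The members and gene lists were chosen with earlier results of these data known. Named were the members, Rhob, Eif2ak3, Atf6b and Hsp90b1 whatever their values, and up to 4 genes per pathway list and direction at an adjusted p below 0.05. Marker genes, Agr2, Eif2ak2, Chac1, Nupr1 and the genes named for passing after centring lie outside this rule. The alternatives were a pseudocount of 0.1, other TPM filters, 3 scalings, a replicate block, limma without the trend, a call rule of unadjusted p below 0.05 with a fold above 1.5, each library left out, and, chosen after seeing the data, both Ddit3 rows summed and the goblet marker sum without Ang4, Retnlb and Clca1.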

Additional observations from a re-analysis of the deposited data

Results flagged for a closer look

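Among 52 groups of 5 libraries examined for a library far from the others, 3 had one, and chance alone marks about 1 in 20 groups. The second row named Ddit3 was at 216.87 TPM in RhoB-/- replicate 2 and at no more than 3.54 TPM in the other RhoB-/- libraries. Txndc5 was at 121.17 TPM in WT replicate 3, below the other WT libraries, which lay between 140.02 and 146.0 TPM. In the library labelled RhoB-/- replicate 5, Rhob was at 110.87 TPM, against at most 0.57 TPM in the other 4 RhoB-/- libraries.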

How the results depend on the processing

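Ern2 was the 1 member that passed in all 10 other settings (log2 fold change -0.93 to -0.74) and in all 10 fits that left out a library (-0.97 to -0.76), and the ratio of Ern2 to Ern1 kept its direction (-0.69 to -0.57 with a library left out, -0.65 without a pseudocount, exact p = 0.00794 in each). The pathway count of 11 became 7 without the TPM filter, 22 after centring, 24 with quantile normalization and 23 without mitochondrial genes, and 7 to 22 with a library left out. In the same order, the first shares were 6.36%, 21.0%, 22.9% and 21.9%, beside 7.52%, 28.1%, 27.7% and 36.4% of all tested genes. Members that did not pass changed sign with quantile normalization (Hspa5 -0.105, Herpud1 -0.039, and the chaperone Hsp90b1 -0.090), without mitochondrial genes (Hspa5 -0.067, Herpud1 -0.072, Hsp90b1 -0.036), after centring (Xbp1 0.070) and with the Ddit3 rows summed (0.287). With a library left out, Hspa5 ranged from -0.052 to 0.132, Herpud1 from -0.164 to 0.145, Xbp1 from -0.094 to 0.027 and Hsp90b1 from -0.029 to 0.131. The cause was not tested. Libraries with the same replicate number did not deviate together (r of same-numbered deviations -0.0874 to 0.072). This cannot show whether those mice were handled together. With a replicate block 1 member and 9 pathway genes passed (8.57% of the pathway genes, beside 14.7% of all tested genes). Without depth, differences in low genes cannot be set against counting error.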
